A study of Homo sapiens with 12 samples.

Results

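The ADAM sheddases are a family of zinc-dependent proteases anchored in the cell membrane, and 7 of them were followed here across all 4 groups of the study: ADAM8, ADAM9, ADAM10, ADAM12, ADAM15, ADAM17 and ADAM19. They were found by matching the RefSeq transcript names of the count table to gene symbols, and the transcript with the highest sum over the 12 libraries stood for each gene. All 7 members were present among the 28087 genes of the table, and all 7 passed the filter on low counts. RNA was sequenced from MV3, an established human melanoma cell line, in 4 groups of 3 libraries. The M1 EV, M0 EV and M2 EV groups received extracellular vesicles (EVs) from THP-1 macrophages in the M1, M0 or M2 state, and the Ctrl group received PBS alone. THP-1 is a human monocytic leukaemia line. Its cells had been polarized for 48 h before vesicles were collected by ultracentrifugation, and no label gives the agents that were used for this. All groups were kept in 12-well plates with 1% EV-depleted serum for 3 h before the addition, and RNA was taken after 24 h with 1e10 particles per well in the vesicle groups. The design has 1 melanoma line and 1 macrophage line, and Ctrl wells received no particles of any kind. Nothing in the labels tells whether replicates came from different cultures or vesicle preparations, so p-values measure only the spread between these samples.

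An ADAM protease carries a prodomain that is removed by convertases such as furin, a catalytic domain, a disintegrin domain that can bind integrins, and a cytoplasmic tail. On the cell surface the enzymes cut other membrane proteins close to the membrane, which releases growth factors and cytokines, removes receptors and adhesion molecules, and for some substrates such as Notch prepares a further cut by gamma-secretase. ADAM10 and ADAM17 are the most widely used sheddases, ADAM9, ADAM12 and ADAM19 form the meltrin group, ADAM15 is known as metargidin, and ADAM8 is best known from leukocytes. ADAM proteins are studied in melanoma for the cleavage of adhesion molecules and growth factor precursors. Their activity is set largely after transcription, so transcript levels do not measure shedding.

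Gene totals were 9694683 to 14379483 counts per library, and 13113 genes were tested. Scaling factors (TMM, trimmed mean of M-values) were 0.993 to 1.007. Libraries of a group differed by 1.04 to 2.32 times the noise of counting, as chi-square over its degrees of freedom, and the highest values, 2.01 and 2.32, were those of M0 EV replicate 1 against the other two M0 EV libraries. M0 EV replicates 2 and 3 differed by 1.04 times this noise, little more than counting alone gives, while the other pairs of a group were at 1.23 or more. They were counted as separate samples. With both summed into 1 sample, 0 members were called in M0 EV against Ctrl and 4 in M1 EV against M0 EV. As separate samples these counts were 0 and 5, where 0.0153% and 25.3% of all genes tested were called. Over the alternatives that left no library out, this sum among them, 2232 to 3417 genes were called in M1 EV against M0 EV. Of the melanocyte and neural crest markers, 4 of 12 were tested (MLANA, PAX3, CSPG4 and MCAM), while TYR, DCT and S100B had no count and SOX10 at most 2 counts in a library. All 9 measured markers of undifferentiated melanoma were tested, with a summed level of 3160 to 3270 CPM (a transcript's counts per 1 M counts of the library, TMM-scaled) in M1 EV libraries and 3500 to 3590 CPM in Ctrl libraries. With M1 EV, 2 of these 9 were higher (TNC and CCN1) and 4 lower (AXL, SOX9, NT5E and LOXL2), and AXL, at 1037 CPM with M1 EV and 1310 CPM in Ctrl, had the largest difference in CPM. Of the 4 melanocyte and neural crest markers tested, PAX3 and MCAM were higher with M1 EV. At the same threshold, an edgeR adjusted p below 0.05 against Ctrl, 14.3% of all genes tested were higher and 13.7% lower. The part of these markers in the results on ADAM genes was not tested. None of the 18 macrophage markers passed the filter. Their summed level was 1.46 to 2.17 CPM in M1 EV, 0.894 to 1.79 CPM in M0 EV, 1.14 to 1.95 CPM in M2 EV and 1.33 to 1.95 CPM in Ctrl libraries, and CD163, TYROBP, FCGR3A, LILRB1 and MNDA had no count in any library. In such bulk samples, fewer cells that express a gene and less RNA of it per cell cannot be told apart.

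Per length of transcript, ADAM9 was the most abundant member and ADAM8 the least abundant. The level was taken as CPM per kilobase (kb) of the matched transcript. In the groups M1 EV, M0 EV, M2 EV and Ctrl, the mean level of ADAM9 was 64.3, 70.6, 71.9 and 74.0 CPM per kb. ADAM15 followed with 38.1, 41.3, 40.9 and 40.4 CPM per kb, and ADAM19 with 21.9, 16.2, 15.5 and 15.7 CPM per kb. ADAM9 was thus well above the rest, and the order of the 7 members was the same in each of the 4 groups. ADAM17 had 15.5, 14.4, 13.6 and 14.6 CPM per kb, ADAM10 had 10.3, 10.0, 9.9 and 9.73 CPM per kb, ADAM12 had 6.08, 7.51, 7.21 and 7.85 CPM per kb, and ADAM8 had 3.05, 2.24, 2.38 and 2.27 CPM per kb. The closest neighbours were ADAM19 and ADAM17: their libraries spanned 21.1 to 22.7 and 15.2 to 15.9 CPM per kb in M1 EV, and 15.2 to 16.7 and 14.4 to 14.8 CPM per kb in Ctrl. The libraries of neighbouring members did not overlap in any group, and the order itself was not tested. It depends on the transcript that stands for each gene: that of ADAM10 is 11431 nucleotides long, and that of ADAM15 (3091 nucleotides) is annotated as a target of nonsense-mediated decay.

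M1 EV was set against Ctrl to see what vesicles from M1 macrophages did to the melanoma transcripts. ADAM19 and ADAM8 rose, by 39.1% and 34.8%, and ADAM12 and ADAM9 fell by 22.6% and 13.0%. Differences of ADAM10, ADAM17 and ADAM15 did not pass the test. Of the 7 members, 2 were thus higher and 2 lower with M1 EV at an adjusted p below 0.05 (edgeR quasi-likelihood test, Benjamini-Hochberg adjustment over all genes tested), where 28.1% of all genes tested passed, 14.3% as higher and 13.7% as lower. The members' median log2 fold change was 0.081, against 0.0008 over all genes, and their median absolute change was 0.20, against 0.12 over all genes. Changes of at least the size of ADAM19's were found in 7.4% of the genes tested, and changes of at least the size of ADAM9's in 29.1%.

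**Figure D1:**
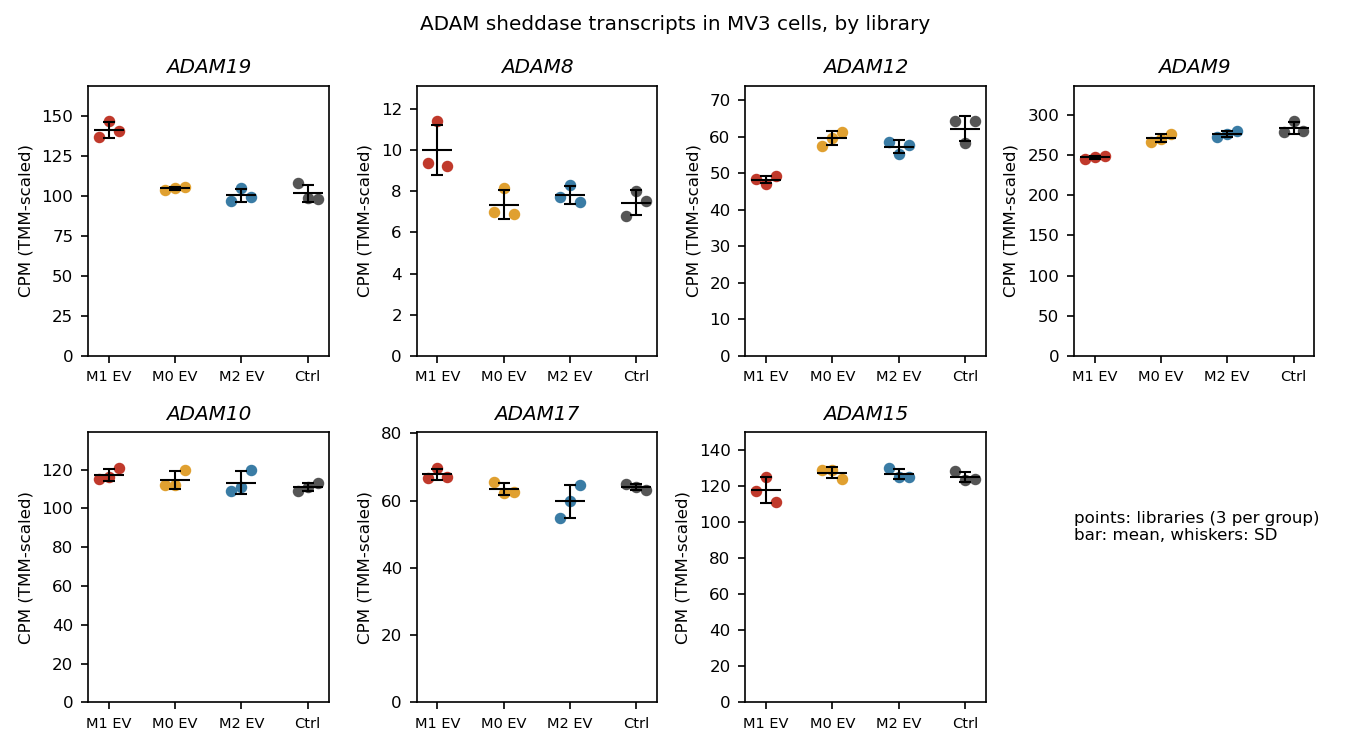
Level of each ADAM sheddase transcript by library, in TMM-scaled CPM from 0 on the vertical axis, for M1 EV, M0 EV, M2 EV and Ctrl. Points are the 3 libraries of a group, the bar is their mean and the whiskers are the SD; the M1 EV libraries lie above all others for ADAM19 and ADAM8, and below all others for ADAM12 and ADAM9.

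ADAM19 (meltrin beta), known in mice for the shedding of neuregulins and for heart development, lies on the minus strand of chromosome 5 (GRCh38.p14, 157477304 to 157575775). Its transcript was at 137, 147 and 141 CPM in M1 EV libraries, 104, 105 and 106 CPM in M0 EV libraries, 97.2, 105 and 99.8 CPM in M2 EV libraries, and 108, 99.2 and 98.3 CPM in Ctrl libraries. All 3 M1 EV libraries lay above all 9 other libraries, which overlapped each other. The mean was 141.7 ± 5.23 CPM with M1 EV and 102.0 ± 5.62 CPM in Ctrl (SD, n = 3 each), a log2 fold change of 0.48 ± 0.043 (SE; edgeR adjusted p = 1.51e-11). It had the largest change of the 7 members. Exons of ADAM19 share 62 bases with CYFIP2 on the opposite strand, which was at 0.779 CPM both with M1 EV and in Ctrl.

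ADAM12 (meltrin alpha), known for the release of heparin-binding EGF-like growth factor and for high levels in many tumours, lies on the minus strand of chromosome 10 (GRCh38.p14, 126012391 to 126388477). It went in the opposite direction: M1 EV libraries had 48.5, 47.2 and 49.2 CPM, M0 EV libraries 57.6, 59.8 and 61.4 CPM, M2 EV libraries 58.7, 55.3 and 57.8 CPM, and Ctrl libraries 64.3, 58.3 and 64.3 CPM. The M1 EV libraries were the lowest 3 of the 12. Against Ctrl, the log2 fold change with M1 EV was -0.37 ± 0.052 (SE; edgeR adjusted p = 5.63e-07).

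ADAM9 (meltrin gamma), a sheddase with a role in pathological vessel growth in mice and a gene on chromosome 8, fell too, by a smaller fraction. It was at 245, 247 and 249 CPM in M1 EV libraries, 266, 270 and 276 CPM in M0 EV libraries, 272, 276 and 280 CPM in M2 EV libraries, and 279, 292 and 280 CPM in Ctrl libraries. Again the M1 EV libraries were the lowest 3 of the 12. Against Ctrl, the log2 fold change with M1 EV was -0.20 ± 0.034 (SE; edgeR adjusted p = 9.84e-06). The 3 meltrins therefore did not move together, as ADAM19 rose while ADAM12 and ADAM9 fell.

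ADAM8, a leukocyte protease that activates itself by removing its own prodomain and is also made by many tumours, lies on the minus strand of chromosome 10 (GRCh38.p14, 133262423 to 133276868). Its level was low, with 9.39, 11.4 and 9.21 CPM in M1 EV libraries, 6.99, 8.14 and 6.9 CPM in M0 EV libraries, 7.71, 8.32 and 7.46 CPM in M2 EV libraries, and 6.79, 8.01 and 7.54 CPM in Ctrl libraries. The M1 EV libraries were the highest 3, and M1 EV replicate 2 stood above the other two. M1 EV against Ctrl gave a log2 fold change of 0.43 ± 0.12 (SE; edgeR adjusted p = 0.00453), from 310 counts over the 3 M1 EV libraries and 231 over the 3 Ctrl libraries. Without M1 EV replicate 2 the log2 fold change was 0.32 and the call was lost (adjusted p = 0.0861; 0.00362 to 0.0861 over all alternatives). ADAM8 is a transcript of macrophages as well. The summed level of all 18 macrophage markers, of which none was tested, was at most 2.17 CPM in the M1 EV libraries, and 5 of them had no count; the part of vesicle RNA in the ADAM8 result was not tested.

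The promoter windows of ADAM19, ADAM8 and ADAM12 are shown because these genes had the largest changes among the members and moved in different directions. The windows are RefSeq sequence of GRCh38.p14 from 250 bases before to 50 bases after the annotated start, read 5′ to 3′ on the minus strand, at chr5:157575726-157576025 for ADAM19, chr10:133276819-133277118 for ADAM8 and chr10:126388428-126388727 for ADAM12. Capitals mark matches to the NF-kB consensus motif, searched on both strands.
ADAM19: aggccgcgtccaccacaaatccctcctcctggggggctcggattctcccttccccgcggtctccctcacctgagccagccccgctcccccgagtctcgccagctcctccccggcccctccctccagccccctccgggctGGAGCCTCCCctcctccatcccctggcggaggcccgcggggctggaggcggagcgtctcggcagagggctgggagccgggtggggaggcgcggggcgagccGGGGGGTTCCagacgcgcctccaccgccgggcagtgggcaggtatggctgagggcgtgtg
ADAM8: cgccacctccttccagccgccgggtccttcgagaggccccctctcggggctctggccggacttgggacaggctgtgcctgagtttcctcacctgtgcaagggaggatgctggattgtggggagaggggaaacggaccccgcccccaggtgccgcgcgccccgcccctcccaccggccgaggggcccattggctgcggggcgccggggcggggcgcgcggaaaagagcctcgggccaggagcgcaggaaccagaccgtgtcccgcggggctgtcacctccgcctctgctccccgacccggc
ADAM12: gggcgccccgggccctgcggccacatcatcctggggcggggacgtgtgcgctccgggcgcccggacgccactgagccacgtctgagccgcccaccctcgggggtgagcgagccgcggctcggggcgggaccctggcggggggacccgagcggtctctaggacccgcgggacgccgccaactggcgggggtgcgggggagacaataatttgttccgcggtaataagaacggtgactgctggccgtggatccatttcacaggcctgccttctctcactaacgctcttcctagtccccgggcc
The ADAM19 window held the NF-kB consensus at 2 places, which start 111 and 10 bases before the annotated start, and the windows of ADAM8 and ADAM12 held none. The motif was found in 11.3% of 35116 promoter windows of the same length. The median content of G and C over all windows was 58.7%. It was 75.7% in the ADAM19 window, 74% in that of ADAM8 and 71% in that of ADAM12. Shares over all windows are therefore not matched for base content. Among the other members scanned, it was found at 1 place in ADAM17 and at 1 place in ADAM10 (on both strands there), and not in ADAM15; the ADAM9 window was not analysed here. None of the 6 windows held TGANTCA, a motif of AP-1 found in 7.71% of all windows. GGGCGG, the GC box, was absent from the ADAM19 window and found at 3 places each in ADAM8 and ADAM12, with 45% of all windows holding it. These matches describe letters in a window and not binding.

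ADAM10, which cuts Notch receptors, amyloid precursor protein and L1CAM, lies on the minus strand of chromosome 15 (GRCh38.p14, 58588809 to 58749707). It had 115, 116 and 121 CPM in M1 EV libraries, 112, 112 and 120 CPM in M0 EV libraries, 109, 111 and 120 CPM in M2 EV libraries, and 109, 111 and 113 CPM in Ctrl libraries. The M1 EV libraries lay narrowly above the Ctrl libraries and among those of the other vesicle groups. The log2 fold change of M1 EV against Ctrl was 0.081, with a 95% interval of -0.01 to 0.17 (edgeR adjusted p = 0.17). A rise of more than 0.17 on the log2 scale lies outside this interval.

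ADAM17, first known as the enzyme that converts the membrane precursor of tumour necrosis factor, lies on the minus strand of chromosome 2 (GRCh38.p14, 9488486 to 9555830). It had 66.6, 69.8 and 67.1 CPM in M1 EV libraries, 65.6, 62.2 and 62.5 CPM in M0 EV libraries, 54.9, 59.8 and 64.8 CPM in M2 EV libraries, and 64.9, 64.0 and 63.2 CPM in Ctrl libraries. The M1 EV libraries were the highest of the 12, and the M2 EV libraries were spread widely. M1 EV against Ctrl gave a log2 fold change of 0.085, with a 95% interval of -0.02 to 0.19 (edgeR adjusted p = 0.232). ADAM17 shares 1323 exon bases with IAH1 on the opposite strand. Use of the strand in counting is not stated, so reads of this stretch may belong to either gene; IAH1 was at 27.47 CPM with M1 EV and 27.81 CPM in Ctrl, with a log2 fold change of -0.02.

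ADAM15 (metargidin), whose disintegrin domain binds integrins and which is studied in cell adhesion, lies on the plus strand of chromosome 1 (GRCh38.p14, 155051316 to 155062775). It had 117, 125 and 111 CPM in M1 EV libraries, 129, 129 and 124 CPM in M0 EV libraries, 130, 125 and 125 CPM in M2 EV libraries, and 128, 123 and 124 CPM in Ctrl libraries. M1 EV replicate 2 lay within the range of the Ctrl libraries, so the groups overlapped, and the other two M1 EV libraries lay below it. The log2 fold change of M1 EV against Ctrl was -0.083 ± 0.042 (SE; edgeR adjusted p = 0.149). Without M1 EV replicate 2 it was -0.13 and passed the test (edgeR adjusted p = 0.0341, in a range of 0.0341 to 0.557 over all alternatives). Exons of ADAM15 share 306 bases with DCST1 on the same strand, which was at 1.056 CPM with M1 EV and 0.954 CPM in Ctrl.

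**Figure D2:**
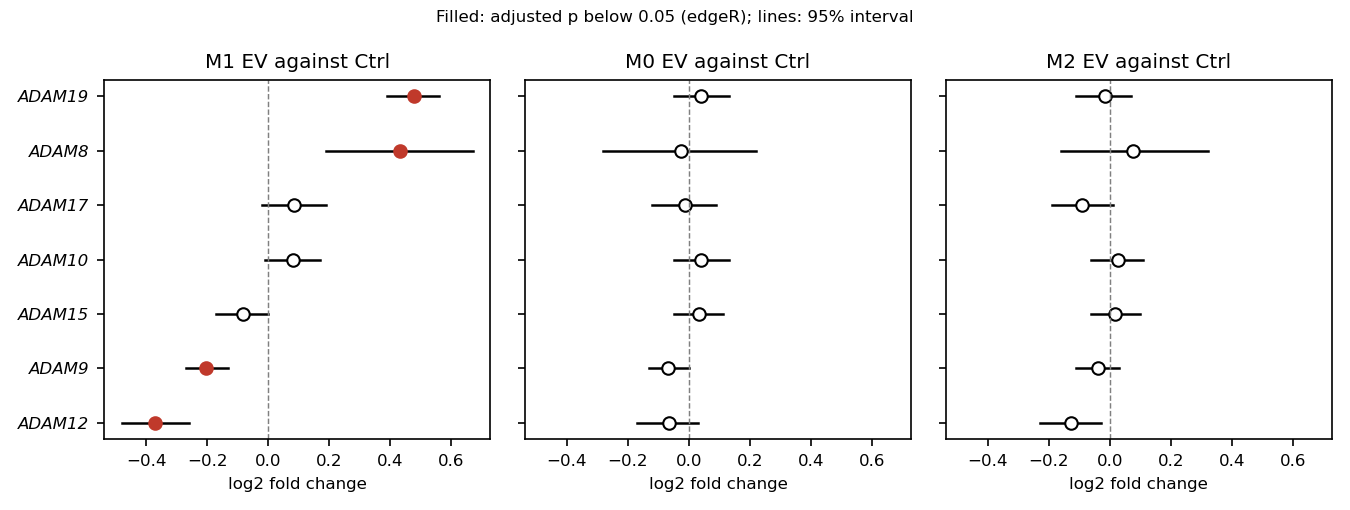
Log2 fold change of each member against Ctrl on the horizontal axis, for M1 EV, M0 EV and M2 EV. Points are edgeR estimates, lines are 95% intervals and filled points have an adjusted p below 0.05; the 4 filled points (ADAM19, ADAM8, ADAM9 and ADAM12) are all in the M1 EV panel, and the 3 comparisons share the Ctrl libraries.

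ADAM12 is made in a long form with a membrane anchor and a short form that is secreted, and both were listed in the table. The long form (7938 nucleotides) had 48.5, 47.3 and 49.1 CPM in M1 EV libraries, 57.5, 59.8 and 61.4 CPM in M0 EV libraries, 58.7, 55.3 and 57.8 CPM in M2 EV libraries, and 64.2, 58.3 and 64.2 CPM in Ctrl libraries. The short form (3313 nucleotides) had 22.8, 25.4 and 23.5 CPM in M1 EV libraries, 27.9, 28 and 29 CPM in M0 EV libraries, 29.1, 26.3 and 28.2 CPM in M2 EV libraries, and 31.6, 28.3 and 30.5 CPM in Ctrl libraries. The counts listed under each form were thus lowest in the M1 EV libraries. The ratio of short-form to long-form counts was 0.471, 0.538 and 0.478 in M1 EV libraries and 0.492, 0.485 and 0.475 in Ctrl libraries, and these ranges overlapped. Reads of exons that the forms share appear under each form, so the ratio is not a ratio of molecules. For the same reason the lower short-form counts are not separate from the long-form counts. A change of the secreted form by itself was not measured. In ADAM8, ADAM9 and ADAM10, the listed transcript with the fewest counts had 91.7% to 98.2% of the counts of the highest one. Over the 12 listed transcripts of ADAM15 this share was 73.6%. Reads of shared exons may be listed under each transcript here too, so these shares do not give the levels of single transcripts. ADAM17 and ADAM19 were each listed with 1 transcript.

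**Figure D3:**
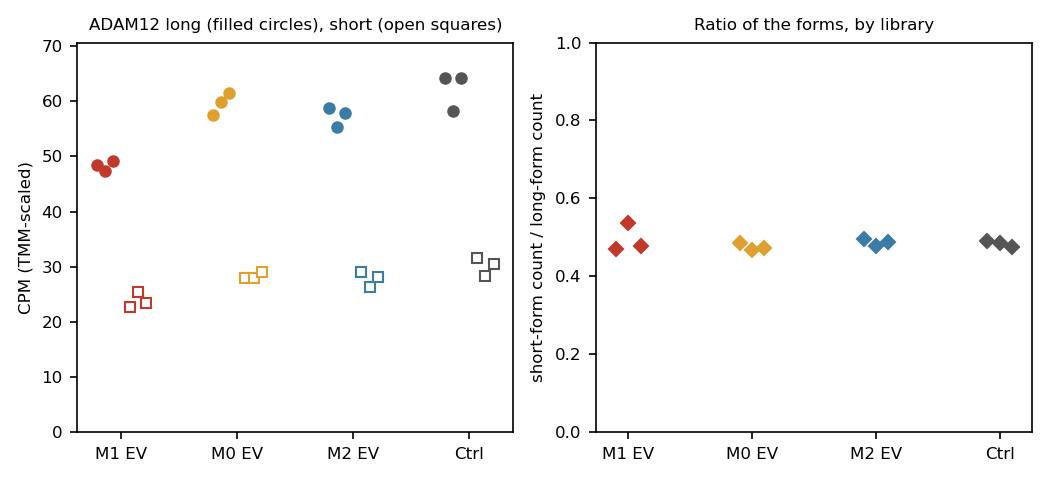
Left, TMM-scaled CPM of the long (filled circles) and short (open squares) ADAM12 transcript by library and group; right, short-form count divided by long-form count in the same libraries. The counts listed under each form, with shared reads in both, are lowest with M1 EV. The ratio lies between 0.468 and 0.538 in all 12 libraries.

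Vesicles of M0 and M2 macrophages served as the comparison for the M1 state. Against M0 EV, 2 members were higher with M1 EV and 3 were lower, where 25.3% of all genes tested passed, 12.5% as higher and 12.8% as lower. ADAM19 was higher by 0.44 ± 0.042 and ADAM8 by 0.46 ± 0.12 on the log2 scale (SE; edgeR adjusted p = 1.26e-10 and 0.00254). ADAM12, ADAM9 and ADAM15 had log2 fold changes of -0.30 ± 0.052, -0.13 ± 0.033 and -0.11 ± 0.042 (adjusted p = 2.02e-05, 0.00225 and 0.0402). The ADAM15 libraries of both groups overlapped, and the call was lost under 12 of 22 alternatives, among them DESeq2 (adjusted p = 0.12; 0.00961 to 0.291 over all alternatives). The ADAM8 call was lost without M1 EV replicate 2 (log2 fold change 0.35, adjusted p = 0.057; 0.00201 to 0.057 over all alternatives).

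Against M2 EV, 3 members were higher with M1 EV and 2 were lower, where 24.6% of all genes tested passed, 12.6% as higher and 12% as lower. The log2 fold change was 0.49 ± 0.042 for ADAM19 and 0.35 ± 0.11 for ADAM8 (SE; edgeR adjusted p = 3.72e-12 and 0.0152), and -0.24 ± 0.052 for ADAM12 and -0.16 ± 0.033 for ADAM9 (adjusted p = 0.000388 and 0.000243). ADAM17 was higher with M1 EV than with M2 EV by 0.18 ± 0.050 on the log2 scale (adjusted p = 0.00826), with means of 67.85 ± 1.71 CPM in M1 EV and 59.84 ± 4.95 CPM in M2 EV (SD, n = 3 each). That call was lost without M2 EV replicate 1, the lowest of the 12 libraries for ADAM17 (log2 fold change 0.13, adjusted p = 0.0657; 0.00103 to 0.0657 over all alternatives). The ADAM8 call was lost without M1 EV replicate 2 (0.24, adjusted p = 0.205), without M2 EV replicate 3 (0.32, adjusted p = 0.0652) and with DESeq2 (0.36, adjusted p = 0.112; 0.0113 to 0.205 over all alternatives). The comparisons of M1 EV share the M1 EV libraries, so they are not independent of each other.

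With M0 EV and M2 EV against Ctrl the members moved little. No member passed edgeR's test in M0 EV against Ctrl, where 0.0153% of all genes tested passed (0.00763% in each direction), in M2 EV against Ctrl, where 0.0458% passed (0.0153% as higher and 0.0305% as lower), or in M2 EV against M0 EV, where 0% passed. DESeq2 and limma-voom also called 0 members in each of these comparisons. An unadjusted p below 0.05 in edgeR's fit was found for 1 member in M0 EV against Ctrl and 1 in M2 EV against Ctrl. In M2 EV against M0 EV it was found for 0 members. Of all 13113 genes tested, 665, 814 and 447 had such a p in these comparisons, in the same order. The members were ADAM9 with M0 EV (log2 fold change -0.067, edgeR adjusted p = 0.965) and ADAM12 with M2 EV (-0.13, edgeR adjusted p = 0.659). The median absolute log2 fold change of the members was 0.041 with M0 EV and 0.039 with M2 EV against Ctrl, beside 0.048 and 0.049 over all genes. For ADAM19, the 95% interval of the log2 fold change was -0.05 to 0.13 with M0 EV and -0.11 to 0.07 with M2 EV.

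Lists of ADAM partners and substrates were read against all genes tested in M1 EV against Ctrl, of which 14.3% were higher and 13.7% lower, with a median log2 fold change of 0.0008. Of 14 listed inhibitors and partners 10 were tested, and of these 1 was higher and 6 were lower than in Ctrl, with a median log2 fold change of -0.17, beside 13.7% of all genes that were lower. TIMP2, an inhibitor of metalloproteinases, was at 445.1 ± 12.1 CPM with M1 EV and 601.4 ± 10.3 CPM in Ctrl (SD, n = 3 each; log2 fold change -0.43 ± 0.030, edgeR adjusted p = 1.41e-14). RECK, a membrane-anchored inhibitor that acts on ADAM10 in mice, fell too (10.34 CPM with M1 EV and 14.42 CPM in Ctrl, edgeR adjusted p = 0.000403). RECK is named here after its values were seen, and it was not called in M1 EV against M0 EV (log2 fold change -0.25, edgeR adjusted p = 0.0832). TIMP3, the main natural inhibitor of ADAM17, had 0 counts over the M1 EV libraries and 2 over the Ctrl libraries and was not tested. TIMP1, which inhibits ADAM10, was at 75.51 CPM with M1 EV and 77.11 CPM in Ctrl (adjusted p = 0.658).

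The iRhom proteins bring ADAM17 to the cell surface, and the 2 genes that encode them moved in different directions. RHBDF1 (iRhom1) had 15.5, 14.4 and 15.3 CPM in M1 EV libraries and 22.8, 20.5 and 20.7 CPM in Ctrl libraries (log2 fold change -0.50 ± 0.081, edgeR adjusted p = 5.65e-06). RHBDF2 (iRhom2) had 16.9, 18.6 and 16.1 CPM in M1 EV libraries and 14.4, 15.3 and 13.0 CPM in Ctrl libraries (0.28 ± 0.096, adjusted p = 0.0239). The RHBDF1 libraries did not overlap between the groups, and neither did those of RHBDF2. The RHBDF2 call was lost with DESeq2 (adjusted p = 0.11), without Ctrl replicate 3 (0.22, adjusted p = 0.154) and without M1 EV replicate 2 (0.22, adjusted p = 0.146; 0.0142 to 0.154 over all alternatives). FRMD8, which stabilizes iRhoms, was at 41.67 CPM with M1 EV and 40.73 CPM in Ctrl (adjusted p = 0.704). Tetraspanins of the C8 type escort ADAM10. Of these, TSPAN14 was at 310.3 ± 12.0 CPM with M1 EV and 351.3 ± 5.59 CPM in Ctrl (log2 fold change -0.18 ± 0.033, adjusted p = 5.46e-05). TSPAN5 and TSPAN17 were lower as well (-0.11 and -0.17). TSPAN17 was not called in M1 EV against M0 EV or M2 EV (edgeR adjusted p = 0.234 and 0.172). TSPAN10 was tested and not called against Ctrl (-0.205, edgeR adjusted p = 0.746). TSPAN15 had 3 counts over the M1 EV libraries and 3 over the Ctrl libraries and was not tested. TSPAN33, with 9 and 7 counts, was not tested either. The convertases FURIN and PCSK7, which remove ADAM prodomains, had log2 fold changes of -0.029 and -0.040 with M1 EV (edgeR adjusted p = 0.709 and 0.633).

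Several growth factors that ADAM proteins release rose with M1 EV. Of 15 listed cytokine and growth factor substrates 7 were tested, 4 were higher and 1 was lower, with a median log2 fold change of 0.66, beside 14.3% of all genes that were higher and an all-gene median of 0.0008. EREG (epiregulin, a ligand of the EGF receptor) had 41.1, 38.1 and 38.8 CPM in M1 EV libraries and 21.0, 21.4 and 22.5 CPM in Ctrl libraries (log2 fold change 0.86 ± 0.068, edgeR adjusted p = 4.28e-13). NRG1 (neuregulin, a ligand of ERBB3 and ERBB4) was at 32.6 ± 3.23 CPM with M1 EV and 20.4 ± 0.682 CPM in Ctrl (0.68 ± 0.074, adjusted p = 1.77e-09), and CSF1 (macrophage colony-stimulating factor) at 41.51 ± 2.75 CPM with M1 EV and 26.03 ± 1.74 CPM in Ctrl (0.67 ± 0.066, adjusted p = 1.4e-10; SD, n = 3 each). HBEGF, a classical substrate of ADAM12 and ADAM17, rose by 0.66 ± 0.072 (adjusted p = 2.22e-09), and KITLG, the ligand of KIT, had a log2 fold change of -0.37 ± 0.075 (adjusted p = 0.000183); both are named after their values were seen. TNF, the substrate that gave ADAM17 its older name, had 4 counts over the M1 EV libraries and 0 over the Ctrl libraries and was not tested.

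**Figure D4:**
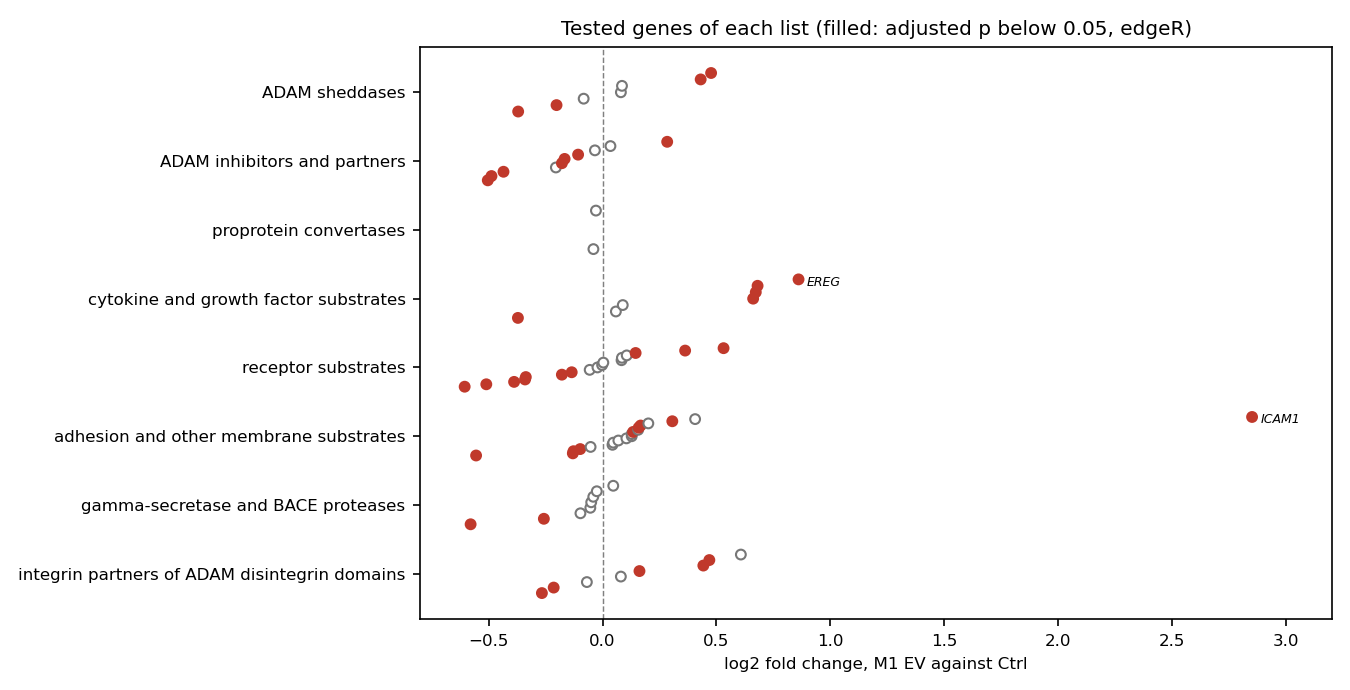
Log2 fold change of M1 EV against Ctrl for every tested gene of the ADAM sheddases and of 7 lists of partners and substrates, with 1 row per list; filled points have an adjusted p below 0.05 (edgeR). To the left of 0 are filled points for 6 of 10 tested inhibitors and partners, 4 of 7 tested cytokine and growth factor substrates are filled to its right, and ICAM1 lies apart at 2.85.

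Receptors listed here as substrates of ADAM proteins moved in both directions with M1 EV. Whether each of them is cut by an ADAM protein in these cells was not tested. Of 25 listed receptor substrates 17 were tested, 3 were higher and 7 lower, with a median log2 fold change of -0.022, beside 14.3% higher and 13.7% lower over all genes. PLAUR, the urokinase receptor, was at 125.5 ± 6.06 CPM with M1 EV and 86.81 ± 3.29 CPM in Ctrl (log2 fold change 0.53 ± 0.044, edgeR adjusted p = 1.27e-12). AXL, a receptor tyrosine kinase that marks undifferentiated melanoma, was at 1037 ± 28.6 CPM with M1 EV and 1310 ± 13.2 CPM in Ctrl (-0.34 ± 0.028, adjusted p = 1.32e-12). LRP1, an endocytic receptor that also clears proteases, was at 368.4 ± 21.3 CPM with M1 EV and 524.9 ± 15 CPM in Ctrl (-0.51 ± 0.063, adjusted p = 3.47e-08; SD, n = 3 each). Among receptors named after their values were seen, NOTCH1 rose by 0.36, and IL6R and ERBB2 had log2 fold changes of -0.39 and -0.34. In M1 EV against M0 EV, IL6R and ERBB2 were called as well, and NOTCH1 was not (0.10, edgeR adjusted p = 0.295). NOTCH2 was at 275.9 CPM with M1 EV and had a log2 fold change of -0.0018 (adjusted p = 0.986).

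Among adhesion molecules and other membrane substrates, ICAM1 had the largest change of all genes in the 10 lists. Of 29 listed genes 19 were tested, 5 were higher and 4 lower with M1 EV, with a median log2 fold change of 0.13, beside 14.3% higher and 13.7% lower over all genes. ICAM1, the ligand of leukocyte integrins, had 77.8, 77.3 and 74.5 CPM in M1 EV libraries, against 11.62 CPM on average with M0 EV, 12.24 CPM with M2 EV and 10.5, 10.7 and 10.7 CPM in Ctrl libraries. L1CAM, an adhesion molecule cut by ADAM10, was at 93.12 ± 3.12 CPM with M1 EV and 136.8 ± 1.96 CPM in Ctrl (log2 fold change -0.55 ± 0.042, edgeR adjusted p = 9.99e-14), and PVR (CD155), a ligand of natural killer cell receptors, was at 149.6 ± 5.29 CPM with M1 EV and 121.2 ± 1.76 CPM in Ctrl (0.31 ± 0.040, adjusted p = 8.53e-08; SD, n = 3 each). CD44, the hyaluronan receptor and a substrate of ADAM10, rose by 0.16 ± 0.028 (adjusted p = 2.2e-05) and is named after its values were seen. APP, a substrate of ADAM10, had a log2 fold change of -0.098.

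Gamma-secretase and the BACE enzymes act after or beside ADAM cleavage. All 8 listed gamma-secretase and BACE genes were tested, 0 were higher and 2 were lower with M1 EV, with a median log2 fold change of -0.052; the 2 called of 8 are near the 28.1% called over all genes. APH1B, a gamma-secretase subunit, was at 15.32 ± 0.209 CPM with M1 EV and 22.85 ± 1.69 CPM in Ctrl (log2 fold change -0.58 ± 0.080, edgeR adjusted p = 3.08e-07). BACE1, the beta-secretase that competes with ADAM10 for amyloid precursor protein, was at 93.71 ± 4.5 CPM with M1 EV and 112.2 ± 1.46 CPM in Ctrl (-0.26 ± 0.043, adjusted p = 1.25e-05; SD, n = 3 each).

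The genes whose levels were most correlated with ADAM19 over the 12 libraries were EFTUD2, a spliceosome component, MCL1, an inhibitor of apoptosis, and GPAM, an enzyme of glycerolipid synthesis. Pearson's r of log2 CPM with ADAM19 was 0.99, 0.984 and 0.98 over 12 libraries. MCL1 was at 372.2 ± 7.14 CPM with M1 EV and 290.4 ± 2.44 CPM in Ctrl (SD, n = 3 each). The size of a change does not enter r. The log2 fold change of M1 EV against Ctrl was 0.16 for EFTUD2, 0.36 for MCL1 and 0.49 for GPAM, beside 0.48 for ADAM19. The libraries fall into M1 EV and the rest for all of these genes, so r describes that shared step and is given without a p-value.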

How the data were processed

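Per the labels' protocols, directional poly(A) RNA libraries were sequenced on a NovaSeq X Plus. The submitters' processing notes name STAR 2.6.1b, HOMER 4.10 and hg38 without their roles. The strand setting used for counting was not given in the sources used here. Deposited were the authors' expected counts (estimated counts) per RefSeq transcript, not normalized: 70507 transcripts in 12 libraries, all multiples of 0.5. Transcripts were named with RefSeq GRCh38.p14 (69830) or GENCODE 29 (327), and 350 without a name (0.0608% to 0.0643% of counts) were left out. The transcript with the most counts stood for each gene, rounded to whole counts. Counts were fitted in R 4.3.3 with edgeR 4.0.16 (default filter for 4 groups, TMM scaling, quasi-likelihood test, 1 term per group over 12 libraries, 8 residual degrees of freedom, no block) with 2-sided tests in 6 comparisons. Benjamini-Hochberg adjustment ran over the 13113 genes tested, and calls were made at an adjusted p below 0.05. The biological coefficient of variation was 2.59%. Fold changes are log2 values with the SE of the fit. The fit was tested on simulated data drawn from the libraries' means. Reads without molecular identifiers are not independent molecules, so counting error is the least error a count can have.

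Beside the 7 members, 10 lists (151 entries) and 3 marker lists were described by counts and medians, without a set test. Named were the members, up to 3 genes per list with the smallest adjusted p among those called in M1 EV against Ctrl, and TIMP3, RHBDF2, FURIN, TSPAN14 and TSPAN15. The 3 genes most like ADAM19 were added by Pearson's r of log2 CPM (prior count 2). Any other list gene that is named was chosen after its values were seen. Members and lists were chosen with earlier results of these data known. Alternatives were DESeq2 1.42.0, limma-voom (limma 3.58.1), RLE and upper-quartile scaling, other low-count filters, the mean over a gene's transcripts, only the groups compared, a replicate block, each library left out, and, added after seeing the data, M0 EV replicates 2 and 3 summed. Figures were drawn with matplotlib 3.10.9.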

Additional observations from a re-analysis of the deposited data

How the results depend on the processing

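Of the members, ADAM19, ADAM12 and ADAM9 kept their direction and their call in each comparison of M1 EV under every alternative. The log2 fold change of M1 EV against Ctrl ranged from 0.447 to 0.525 for ADAM19, from -0.412 to -0.345 for ADAM12 and from -0.211 to -0.18 for ADAM9. The count of members called was 4 in M1 EV against Ctrl under all 21 alternatives, although without M1 EV replicate 2 ADAM8 lost its call and ADAM15 gained one. It was 4 or 5 against M0 EV and against M2 EV, and 0 in the comparisons without M1 EV. Some uncalled values changed sign with a shift larger than the SE of the main fit, both in M2 EV against Ctrl. They were ADAM10 without M2 EV replicate 3 (-0.0157, in a range of -0.0157 to 0.0515 with a library left out) and ADAM19 without Ctrl replicate 1 (0.0283, in a range of -0.0479 to 0.0283). Smaller shifts also crossed 0 with a library left out. These were ADAM8 in M0 EV against Ctrl (-0.103 to 0.0205) and ADAM10 in M2 EV against M0 EV (-0.0532 to 0.0209). The cause was not tested. As a ratio, counts over all genes moved most in the comparisons with few calls. In M0 EV against Ctrl (2 genes), 0 were called with DESeq2, 4 with upper-quartile scaling, 53 without a low-count filter, 20 with a replicate block, 1 with M0 EV replicates 2 and 3 summed, and 0 to 87 with a library left out, the 87 without M0 EV replicate 1. In M2 EV against Ctrl (6 genes), 1 was called with DESeq2, 31 without a low-count filter, 62 with only those groups, and 0 to 48 with a library left out. In M2 EV against M0 EV (0 genes), 12 were called without a low-count filter, 1 with a replicate block and 0 to 36 with a library left out. DESeq2 called 2098 genes in M1 EV against M2 EV, where edgeR called 3229, 2555 in M1 EV against Ctrl (edgeR 3683) and 2232 in M1 EV against M0 EV (edgeR 3321). With a library left out, 3044 to 3841 genes were called in M1 EV against Ctrl, 2647 to 3337 against M0 EV and 2550 to 3383 against M2 EV. Deviations of same-numbered libraries from their group means had r of -0.048 to 0.09, against -0.068 to 0.065 for other pairs. These ranges overlap. Such deviations are largely noise of single libraries, so r cannot tell whether a number marks a shared culture or preparation. With the replicate block, 4 members were still called in M1 EV against Ctrl and 3757 genes in all. RLE, upper-quartile and DESeq2 scaling moved the median of all genes by at most 0.0073 on the log2 scale. Depth limits ADAM8 most among the members, with 231 to 310 counts per group, and genes such as TIMP3 and TNF, with at most 4 counts over a group, were not tested.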

Other observations

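Of 14 other ADAM genes, 7 had no count in any library and 3 were tested. ADAM23, a neuronal member without protease activity, was at 8.806 ± 0.111 CPM with M1 EV and 9.605 ± 0.29 CPM in Ctrl (SD, n = 3 each), ADAM22 at 4.492 CPM with M1 EV and 5.128 CPM in Ctrl, and ADAM21 at 2.22 CPM with M1 EV and 1.962 CPM in Ctrl (edgeR adjusted p = 0.485, 0.415 and 0.608). Of 19 ADAMTS genes, the secreted relatives that cut extracellular matrix, 5 were tested, and 2 were higher and 1 lower with M1 EV, beside 14.3% higher and 13.7% lower over all genes tested. ADAMTS6 was at 22.51 ± 1.62 CPM with M1 EV and 17.23 ± 0.575 CPM in Ctrl (log2 fold change 0.38 ± 0.084, adjusted p = 0.000468). The calls of ADAMTS1 (0.12, adjusted p = 0.0484; 0.0229 to 0.249 over all alternatives) and ADAMTS16 (-0.48, adjusted p = 0.0208; 0.0114 to 0.112) were lost under 11 and 4 of 21 alternatives.

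Integrin subunits that ADAM disintegrin domains can bind changed in 5 of 8 tested genes with M1 EV, with 3 higher and 2 lower, beside 28.1% of all genes tested that were called. ITGA5, which pairs with ITGB1 as the fibronectin receptor, was at 266.2 ± 4.85 CPM with M1 EV and 192.4 ± 3.85 CPM in Ctrl (SD, n = 3 each; log2 fold change 0.47 ± 0.035, edgeR adjusted p = 7.31e-14), and ITGAV rose by 0.44 ± 0.037 (adjusted p = 2.96e-12). ITGA3, a subunit of a laminin receptor, had a log2 fold change of -0.27 ± 0.033 (adjusted p = 3.15e-08). ITGB1 rose by 0.16, and ITGA6, another laminin receptor subunit, had -0.21, both named after their values were seen. Of 14 listed genes for trafficking and cytoplasmic partners of ADAM proteins 13 were tested, 2 were higher and 2 lower, near the share over all genes. PLK2, a polo-like kinase, was at 33.78 ± 0.0974 CPM with M1 EV and 57.46 ± 4.84 CPM in Ctrl (-0.77 ± 0.060, adjusted p = 2.83e-13), and the scaffold gene DLG1 had a log2 fold change of -0.21 ± 0.042 (adjusted p = 0.000176). PHB1 (prohibitin) rose by 0.19 ± 0.039 (adjusted p = 0.000174).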
